A study of Mus musculus with 9 samples.

Results

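The PGC-1 network and the mitochondrial dynamics machinery were represented by 10 genes, chosen by symbol: the coactivators Ppargc1a and Ppargc1b, the transcription factors Esrra and Nrf1, the mitochondrial DNA factor Tfam, the fusion genes Mfn1, Mfn2 and Opa1, and the fission genes Dnm1l and Fis1. All 10 were among the 24063 gene symbols measured, and all 10 passed the filter on low counts, which kept 14006 genes. RNA was sequenced from C2C12 cells, an established clonal mouse myoblast line that fuses into multinucleated fibres in low serum. Every library came from wild-type cells differentiated in DMEM with 2% fetal bovine serum and labelled day 3. The 3 groups of 3 libraries were control fibres in normal medium, fibres in One-Carbon Metabolite Induced Medium (1C-MIM), where 6 one-carbon metabolites were added, and scramble fibres, given 6 metabolites from outside that network. Which metabolites were used, and how much, is not stated here. Since nothing in the labels calls the 3 libraries of a group separate cultures, the p-values rest on a spread between libraries that may be technical.

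PGC-1 proteins do not bind DNA themselves. They dock on transcription factors such as the oestrogen-related receptors and the nuclear respiratory factors, and so raise transcription of nuclear genes for the respiratory chain and for upkeep of mitochondrial DNA. In muscle this network is known for its response to exercise and for the oxidative capacity of fibres. Mitochondria also fuse and divide: mitofusins join outer membranes, OPA1 joins inner membranes, and the GTPase DRP1, encoded by Dnm1l, constricts them after adaptors recruit it.

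Depth was 29.0 to 33.2 M counts per library with 1 transcript per gene. Libraries of 1C-MIM stood apart on the first principal component, which held 66.7% of the variance. Of 10 muscle fibre markers 9 were in the tables, and their summed level in CPM (counts scaled to a common library size) was 10255 in control library 1, 5499.8 and 4860.4 in the other controls, 7886 to 9819 with 1C-MIM and 5738 to 8641 with scramble. Of these 9 markers 2 were higher and 0 lower in 1C-MIM than in control at an adjusted p below 0.05 in edgeR. Of all genes tested 22.9% were higher and 24.3% lower. Myog was at 927, 779 and 850 CPM in 1C-MIM and 462, 320 and 316 CPM in control. Ckm was at 147, 113 and 110 CPM in 1C-MIM and 78.8, 55.7 and 45.1 CPM in control. For both, all libraries of 1C-MIM were above those of control and scramble. Myh8 was at 70.0, 54.4 and 52.9 CPM in 1C-MIM, below all libraries of control and scramble, without passing that threshold. The remaining fibre markers overlapped between 1C-MIM and control. All 7 markers of cycling or undifferentiated myoblasts were measured. Their sums were 684 to 835 CPM in 1C-MIM, 1226 to 1596 CPM in control and 1322 to 1555 CPM in scramble. At the same threshold 5 of the 7 were lower and 1 higher in 1C-MIM than in control. The cell cycle genes Mki67, Top2a, Ccna2, Ccnb1 and Cdk1 were lower in all 1C-MIM libraries than in any control. Pax7 went the other way, at 39.4, 39.7 and 39.2 CPM in 1C-MIM and 27.5, 27.2 and 31.4 CPM in control. Myf5 overlapped between these groups. Among 8 adipocyte markers Ucp1, the uncoupling protein of brown fat, was at 0 in all 9 libraries, and 7 of the 8 stayed below 1 CPM in all libraries, Cebpa being the exception. In bulk RNA a smaller share of cells of a type and less RNA per cell cannot be told apart, and the part of these marker differences in the results was not tested.

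Per transcript length, as the TPM deposited by the authors, Fis1 was the most abundant of the 10 and the coactivators the least. In control the mean was 178 ± 8.3 TPM for Fis1 (SD, n = 3), 48.6 ± 3.0 for Dnm1l, 30.7 ± 2.7 for Mfn2 and 22.4 ± 2.3 for Opa1. Esrra (19.6 ± 1.4 TPM), Tfam (19.0 ± 0.52 TPM) and Mfn1 (16.8 ± 1.8 TPM) followed, and the ranges of neighbours among these 3 overlapped in control and in scramble. Nrf1 stood at 13.2 ± 0.32 TPM, Ppargc1b at 2.17 ± 0.24 TPM and Ppargc1a at 0.175 ± 0.056 TPM. The order of the group means was the same in all 3 groups, and in 1C-MIM no neighbouring ranges overlapped.

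**Figure D1:**
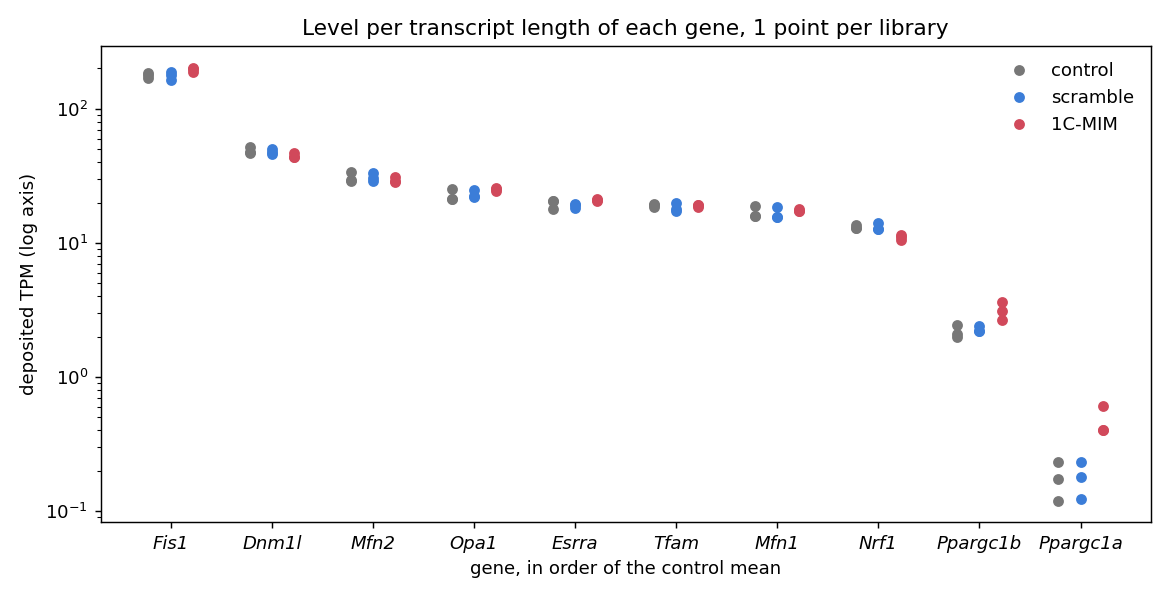
Deposited TPM (log axis) of each of the 10 genes, 1 point per library, in order of the control mean, with control in grey, scramble in blue and 1C-MIM in red. Fis1 lies between 165 and 203 TPM in all libraries, and Ppargc1a between 0.120 and 0.606 TPM, with the 3 points of 1C-MIM above the other 6.

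With 1C-MIM the RNA of both coactivators rose and that of the transcription factor Nrf1 fell, against control and against scramble. The fission GTPase gene Dnm1l was called lower against control alone, and 6 genes were not called in either comparison. Called means an adjusted p below 0.05 in edgeR's quasi-likelihood test with Benjamini-Hochberg adjustment over all 14006 genes. In the comparison with control 4 of 10 genes were called (2 higher, 2 lower), where 47.3% of all genes tested were called, 22.9% higher and 24.3% lower. Against scramble 3 of 10 were called (2 higher, 1 lower), where the share over all genes was 46%, 22.9% higher and 23.2% lower. These shares of the 10 genes are not above those of all genes. The 3 libraries of 1C-MIM did not overlap with control for 5 of the 10 genes, beside 55.5% of all genes, nor with scramble for 5 of the 10, beside 59.5%. The median log2 fold change of the 10 was 0.06 against control and 0.08 against scramble, beside -0.01 and 0.00 over all tested genes. Between scramble and control 0 of the 10 genes and 0 of all genes were called by edgeR (0%), and 0 of the 10 had an unadjusted p below 0.05 or groups that did not overlap, beside 9.09% of all genes without overlap. Over all genes 482 had an unadjusted p below 0.05 in that comparison, DESeq2 called 4 and limma-voom 0. The 1C-MIM comparisons share the 1C-MIM libraries, so they are not independent of each other.

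**Figure D2:**
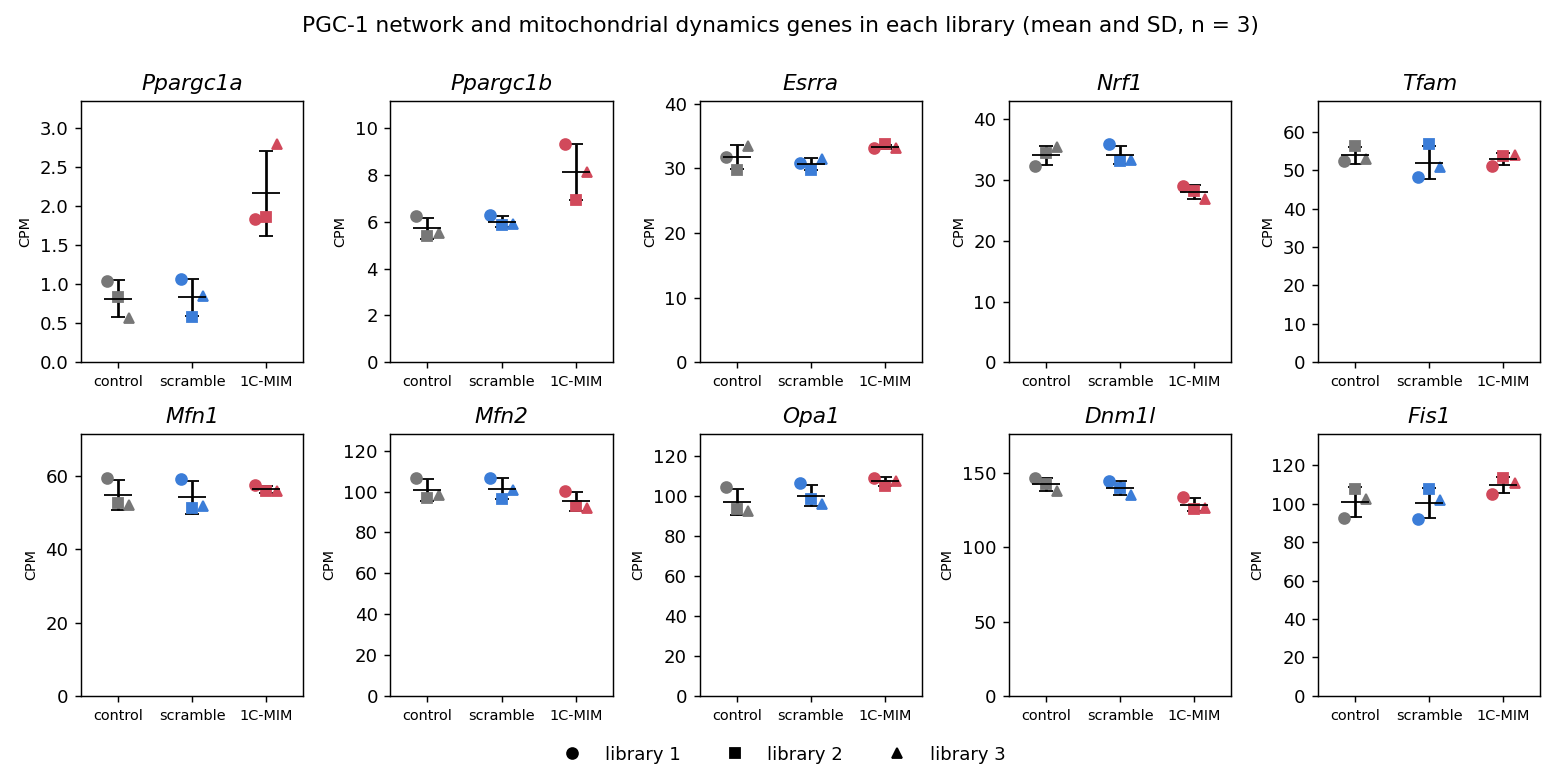
CPM of the 10 genes in each library (linear axis from 0), grouped as control, scramble and 1C-MIM, with a symbol shape for each library number and a black bar with whiskers for mean and SD (n = 3). Ppargc1a and Ppargc1b sit higher and Nrf1 and Dnm1l lower in all 3 libraries of 1C-MIM than in the other 6, while Tfam, Mfn1, Mfn2 and Fis1 overlap between groups.

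Ppargc1a encodes PGC-1alpha, the best known coactivator of mitochondrial biogenesis. It was rare in these fibres: the control libraries held 33, 27 and 19 counts, the scramble libraries 34, 17 and 25, and the 1C-MIM libraries 52, 54 and 83. Scaled to depth these were 1.04, 0.836 and 0.565 CPM in control, 1.06, 0.580 and 0.849 CPM in scramble, and 1.83, 1.86 and 2.79 CPM in 1C-MIM. The 3 libraries of 1C-MIM were above all 6 others, and control and scramble overlapped. The log2 fold change was 1.41 ± 0.29 against control (2.66-fold, 95% interval 1.72 to 4.13, adjusted p = 0.00212) and 1.37 ± 0.29 against scramble (adjusted p = 0.00276). Scramble and control differed by 0.04 ± 0.32, with an interval of 0.632-fold to 1.68-fold. The tables list 2 Ppargc1a transcripts, NM_008904 and NR_027710, with the same count in every library, so they do not separate the isoforms of PGC-1alpha.

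The region just before the annotated Ppargc1a start is shown because cyclic AMP signalling is known to act on this promoter through a CRE. It is the 250 bases upstream of the RefSeq start (build GRCm38.p6, chr5:51567726-51567975, minus strand), and capitals mark a CRE half-site.
Ppargc1a: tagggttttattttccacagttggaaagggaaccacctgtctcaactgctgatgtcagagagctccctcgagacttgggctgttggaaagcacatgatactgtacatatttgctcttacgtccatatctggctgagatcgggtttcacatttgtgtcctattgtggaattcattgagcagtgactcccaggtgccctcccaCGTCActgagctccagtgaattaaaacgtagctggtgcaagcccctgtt
The half-site TGACG, searched on both strands, begins 49 bases before the start, where it reads CGTCA on the strand shown. The same letters occur in 17.8% of the 32851 RefSeq windows of this length, so their presence is common.

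Ppargc1b encodes PGC-1beta, the close relative that also coactivates oestrogen-related receptors. Its levels were 6.23, 5.39 and 5.53 CPM in control, 6.26, 5.84 and 5.91 CPM in scramble, and 9.30, 6.91 and 8.11 CPM in 1C-MIM. No library of 1C-MIM overlapped with the other groups, although 1C-MIM library 2 lay close to them. The rise was 0.50 ± 0.12 against control (1.42-fold, interval 1.18 to 1.70, adjusted p = 0.00523) and 0.43 ± 0.12 against scramble (1.35-fold, adjusted p = 0.0123). Without 1C-MIM library 1 the difference from scramble was 0.32 with an adjusted p of 0.0505, and so was no longer called. Within each library the ratio of Ppargc1a to Ppargc1b TPM was 0.0578 to 0.0943 in control, 0.0562 to 0.0962 in scramble and 0.111 to 0.195 in 1C-MIM. Ppargc1a was thus the rarer coactivator RNA in all 9 libraries, by TPM. This pair was chosen after its values had been seen, and the ratio carries no test.

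Esrra encodes the oestrogen-related receptor ERRalpha, a main DNA-binding partner of PGC-1 and, by common account, also one of its targets. It stood at 31.8, 29.8 and 33.5 CPM in control, 30.9, 29.7 and 31.5 CPM in scramble and 33.1, 33.7 and 33.1 CPM in 1C-MIM. The 1C-MIM values lay within the control range or just above it. The difference was 0.07 ± 0.06 against control (adjusted p = 0.318), with an interval of 0.964-fold to 1.15-fold, and 0.12 ± 0.06 against scramble (adjusted p = 0.110). Esrra shares 73 exon bases with Trmt112 on the opposite strand, and its counts are uncertain to that extent because it is not known whether reads were counted by strand.

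Nrf1 encodes nuclear respiratory factor 1, which activates genes of the respiratory chain and Tfam. It was measured at 32.4, 34.4 and 35.4 CPM in control, 35.9, 33.2 and 33.4 CPM in scramble and 29.1, 28.2 and 26.9 CPM in 1C-MIM. All 3 libraries of 1C-MIM were below the other 6. Nrf1 fell by 0.28 ± 0.06 on the log2 scale against control (0.823-fold, interval 0.752 to 0.901, adjusted p = 0.00256) and by 0.28 ± 0.06 against scramble (adjusted p = 0.00247). Its RNA thus moved opposite to that of the coactivators. The tables hold 6 Nrf1 transcripts, of which 2 share the highest count and the other 4 have 62.2% to 66.0% of it on average. With the mean over transcripts in place of the kept one, the fall against control was 0.33 on the log2 scale.

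Tfam encodes the protein that packages mitochondrial DNA and starts its transcription. Its levels were 52.3, 56.4 and 52.8 CPM in control, 48.2, 56.7 and 50.9 CPM in scramble and 51.1, 53.7 and 54.0 CPM in 1C-MIM. The 3 groups overlapped. The difference from control was -0.02 ± 0.06 (interval 0.892-fold to 1.08-fold, adjusted p = 0.784), and that from scramble 0.03 ± 0.06 (adjusted p = 0.755). The sign of both differences changed in some alternative settings.

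Among the fusion genes, Mfn1 and Mfn2 encode the outer membrane mitofusins. Mfn1 stood at 59.6, 52.8 and 52.15 CPM in control, 59.2, 51.4 and 51.8 CPM in scramble and 57.4, 55.8 and 55.8 CPM in 1C-MIM. The highest value in each group was that of library 1. Against control the difference was 0.04 ± 0.07 (interval 0.925-fold to 1.14-fold, adjusted p = 0.662), and it was -0.01 when libraries were scaled by size alone. Mfn2, which also tethers mitochondria to the endoplasmic reticulum, was at 107, 97.0 and 98.3 CPM in control, 107, 96.6 and 101 CPM in scramble and 100.3, 93.2 and 92.0 CPM in 1C-MIM. Its groups overlapped as well, with a difference from control of -0.08 ± 0.06 (interval 0.866-fold to 1.03-fold, adjusted p = 0.271). The ratio of Mfn1 to Mfn2 TPM within a library was 0.534 to 0.561 in control, 0.516 to 0.558 in scramble and 0.576 to 0.610 in 1C-MIM.

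Opa1 encodes the dynamin-like GTPase that fuses inner membranes and shapes cristae. It was at 104, 93.5 and 92.6 CPM in control, 106, 98.3 and 95.9 CPM in scramble and 109, 105 and 108 CPM in 1C-MIM. The 1C-MIM libraries were all above control, although 1C-MIM library 2 was barely above control library 1, and they overlapped with scramble. The difference from control was 0.15 ± 0.06 (1.11-fold, interval 1.01 to 1.21) and missed the threshold (adjusted p = 0.0585). It passed without control library 1, at 0.20 (adjusted p = 0.00522), and without scramble library 1, at 0.15 (adjusted p = 0.0474). Against scramble the difference was 0.10 ± 0.06 (adjusted p = 0.193).

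Dnm1l encodes DRP1, the GTPase that drives fission, and was the fission gene that was called. Its levels were 147, 142 and 138 CPM in control, 145, 140.2 and 136 CPM in scramble and 134, 126 and 126 CPM in 1C-MIM. All 3 libraries of 1C-MIM were below the other 6. It fell by 0.14 ± 0.05 on the log2 scale against control (0.905-fold, interval 0.842 to 0.972, adjusted p = 0.0257), while the difference from scramble, -0.12 ± 0.05, missed the threshold (adjusted p = 0.0521). The call against control was lost without control library 2 (adjusted p = 0.0565), 1C-MIM library 2 (0.0918) or 1C-MIM library 3 (0.0877). The call against scramble was made without control library 1 (adjusted p = 0.0259) or 1C-MIM library 1 (0.0368), and by DESeq2 (0.0461). It was also made with upper quartile scaling (0.0257), library size alone (0.0193), a minimum of 10 counts in every group mean (0.0437), the compared groups alone (0.0374) and the replicate block (0.017), so it depended on the setting. Dnm1l shares 243 exon bases with the antisense gene Gm49521, which leaves its counts uncertain to that extent.

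Fis1 encodes a small outer membrane protein linked to fission. It stood at 92.3, 108 and 103 CPM in control, 91.8, 107.5 and 102 CPM in scramble and 105, 114 and 111 CPM in 1C-MIM. The groups overlapped, and library 1 was the lowest of each group. Its difference was 0.12 ± 0.07 against control (interval 0.977-fold to 1.21-fold, adjusted p = 0.178) and 0.13 ± 0.07 against scramble (adjusted p = 0.157). Without control library 1 the first was 0.06, and without scramble library 1 the second was 0.07. With the replicate number as a block both were called (adjusted p = 0.0226 and 0.0181).

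**Figure D3:**
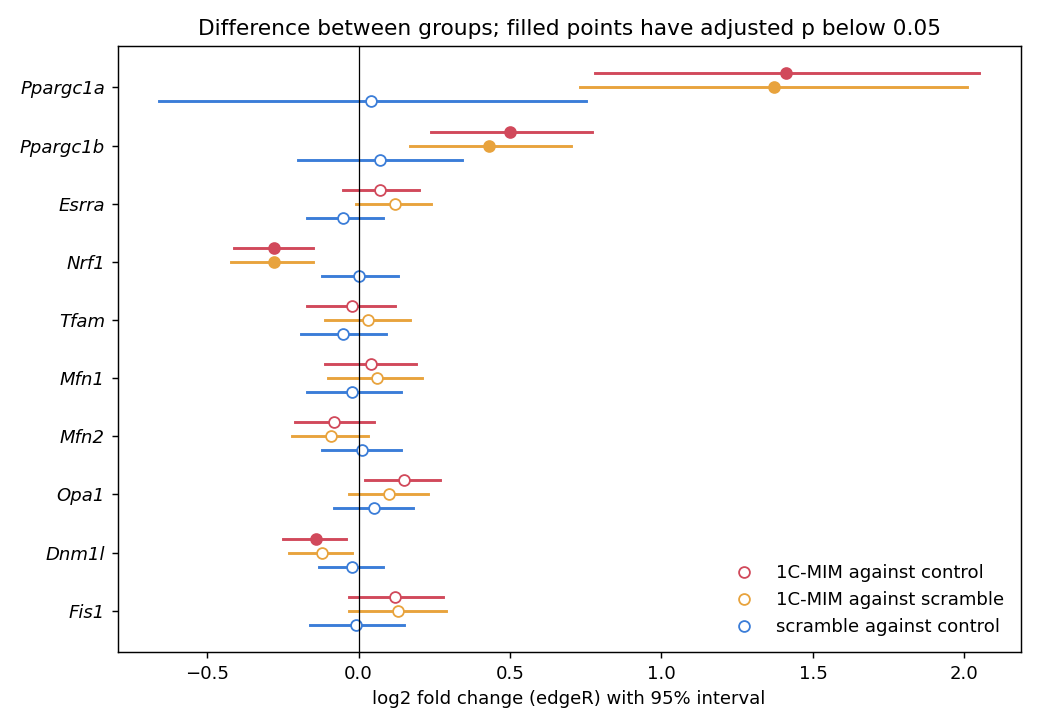
Log2 fold change of each gene (point) with its 95% interval (line) from edgeR, for 1C-MIM against control in red, 1C-MIM against scramble in orange and scramble against control in blue, filled where the adjusted p is below 0.05. The points of Ppargc1a lie at 1.41 and 1.37 for 1C-MIM and at 0.04 for scramble, while 7 of the other 9 genes lie within 0.15 of 0 in all 3 comparisons.

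Ratios within a library do not depend on how libraries are scaled, and show only that a pair changed unequally. These pairs were picked after the values had been seen, so they carry no test. The ratio of Opa1 to Dnm1l TPM was 0.481, 0.445 and 0.455 in control, 0.497, 0.475 and 0.479 in scramble and 0.552, 0.563 and 0.576 in 1C-MIM. That of Fis1 to Dnm1l was 3.25, 3.91 and 3.85 in control, 3.28, 3.96 and 3.88 in scramble and 4.06, 4.66 and 4.53 in 1C-MIM. In both ratios every 1C-MIM library was above the other 6.

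Several of these genes differed together by the number of the library. Library 1 was the highest of its group in all 3 groups for Ppargc1b, Mfn1, Mfn2, Opa1 and Dnm1l, and the lowest in all 3 for Tfam and Fis1. On the log2 scale, control library 1 differed from the mean of the other controls by 0.57 for Ppargc1a, 0.18 for Mfn1, 0.17 for Opa1, 0.13 for Mfn2 and -0.19 for Fis1. In scramble the values were 0.58, 0.20, 0.13, 0.11 and -0.19, and in 1C-MIM they were -0.35, 0.04, 0.04, 0.12 and -0.09. The muscle marker sum was also highest in library 1 of each group, and its part in these differences was not tested. With the libraries numbered 1 left out, 5 genes were called against control and 5 against scramble: Ppargc1a (1.73 and 1.70), Ppargc1b (0.46 and 0.35), Nrf1 (-0.34 and -0.27), Opa1 (0.19 and 0.13) and Dnm1l (-0.15 and -0.13).

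Other promoters were searched for letters that factors of this network are known to bind, on both strands of the 250 bases before each RefSeq start. The search covered 14 starts of 9 genes. The palindrome of nuclear respiratory factor 1 was found only before Opa1, 59 bases from the start, and in 4.98% of all windows. The core CCGGAAG, bound by GABP and other ETS factors, was found before Tfam (47 bases from the start), Mfn1 (44) and Fis1 (18), and in 6.91% of all windows. The half-site of oestrogen-related receptors, AAGGTCA, was found before 0 of the 9 genes and in 4.08% of all windows. The GC box GGGCGG was found before 8 of the 9 genes, in 10 of their 14 windows, and in 32.7% of all windows. G and C made up 43.2% to 76.0% of these 14 windows, beside a median of 52.4% over all windows. The part of base composition in the matches was not tested. Tfam and Opa1 are shown because their windows hold such letters while their RNA was not called, and Nrf1 because it fell and its window holds GC boxes alone. Capitals mark every match to the 5 motifs, and coordinates are those of GRCm38.p6: Tfam chr10:71238045-71238294 (minus strand), Opa1 chr16:29579084-29579333 (plus strand) and Nrf1 chr6:30047738-30047987 (plus strand, the first of 2 annotated starts).
Tfam: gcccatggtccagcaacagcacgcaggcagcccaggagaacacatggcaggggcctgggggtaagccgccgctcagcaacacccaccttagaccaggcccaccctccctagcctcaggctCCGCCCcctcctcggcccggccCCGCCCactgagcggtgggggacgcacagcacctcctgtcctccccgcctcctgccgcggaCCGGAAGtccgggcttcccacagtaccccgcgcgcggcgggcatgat
Opa1: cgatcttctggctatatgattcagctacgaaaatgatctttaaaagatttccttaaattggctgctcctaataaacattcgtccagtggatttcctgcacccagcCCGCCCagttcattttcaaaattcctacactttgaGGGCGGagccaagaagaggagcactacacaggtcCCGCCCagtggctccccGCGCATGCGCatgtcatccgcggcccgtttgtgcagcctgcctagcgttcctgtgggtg
Nrf1: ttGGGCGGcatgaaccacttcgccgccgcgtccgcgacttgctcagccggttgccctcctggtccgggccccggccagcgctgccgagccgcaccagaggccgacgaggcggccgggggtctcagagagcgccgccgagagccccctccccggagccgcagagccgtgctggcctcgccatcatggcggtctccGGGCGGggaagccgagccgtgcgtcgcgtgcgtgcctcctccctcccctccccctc
A match is a run of letters and not a measured site, and a missing match says only that these letters are not in the window.

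Beyond the 10 genes, 154 tested genes in 10 lists of the same network gave 51 rises and 31 falls with 1C-MIM against control, so 53.2% were called, beside 47.3% of all genes. Against scramble 48 rose and 24 fell (46.8%, beside 46%), and between scramble and control 0 were called. The lists went different ways, and each count against scramble is given beside that against control. Unless a comparison is named, the values that follow are for 1C-MIM against control, with 22.9% of all genes called higher, 24.3% lower and a median of -0.01.

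Genes that regulate PGC-1 activity gave 9 rises and 3 falls among 22 (median 0.08), and 8 rises and 2 falls against scramble (median 0.13). Without control library 2 or 3 the median against control was 0.03 or 0.04, and rises numbered 6. Mef2a, a muscle transcription factor that acts on the Ppargc1a promoter, rose from 290 ± 70 to 606 ± 10 CPM (1.06 ± 0.16, adjusted p = 5.3e-04). The other MEF2 genes of the list, named after their values were seen, split: Mef2d rose by 0.52 ± 0.11 (adjusted p = 0.00389), and Mef2c fell from 293 ± 81 to 168 ± 8.9 CPM (-0.80 ± 0.20, adjusted p = 0.0129) and by 0.85 ± 0.20 against scramble. The calcineurin subunit gene Ppp3ca rose by 0.41 ± 0.05. Genes of the opposite role rose with them: Mybbp1a, a repressor of PGC-1alpha, by 0.38 ± 0.05, and Kat2a, which acetylates and restrains it, by 0.35 ± 0.06. Mef2a and Mybbp1a share exon bases with Lysmd4 and Spns2 on the opposite strand. Among nuclear receptor partners 3 of 8 rose and 0 fell (median 0.11): the retinoid X receptor genes Rxrb (0.46 ± 0.05) and Rxra (0.35 ± 0.05), and Thra, a thyroid hormone receptor (0.19 ± 0.05), which shares exon bases with Nr1d1. Esrrb, an oestrogen-related receptor gene at 0.641 ± 0.45 CPM in control and 0.254 ± 0.077 CPM in 1C-MIM, was not called (-1.32 ± 0.52, adjusted p = 0.0585), and its value rested on control library 1 (1.16 CPM, beside 0.403 and 0.357 CPM in the other controls). Without that library it was -0.58 (adjusted p = 0.302), and it was called without control library 2 or 3. Against scramble Esrrb was not called either (-1.37 ± 0.53, adjusted p = 0.0528), with values from -1.55 to -1.14 over the alternatives. There it was called in some settings, among them without control library 1 (adjusted p = 0.00729) or 3 (0.0417). Of the 8 genes 2 rose and 0 fell against scramble (median 0.01), but 2 fell without control library 1 and 1 without control library 3. Thra was not called against scramble (0.11 ± 0.05, edgeR adjusted p = 0.0773).

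Of 15 coactivators and respiratory factors 4 rose and 2 fell (median 0.03), and against scramble 6 rose and 1 fell (median 0.11). The median against control ranged from -0.01 to 0.05 over the alternatives. Crebbp, an acetyltransferase that PGC-1 recruits, rose from 40.1 ± 2.2 to 65.0 ± 0.75 CPM (0.70 ± 0.06, adjusted p = 1.0e-05). Ncoa1 (0.86 ± 0.08) and Med1 (0.46 ± 0.05), a coactivator and a Mediator subunit, rose with it. Gabpb1, a subunit of the GABP respiratory factor, fell by 0.34 ± 0.06. Only 1 gene fell in this list without control library 1, 1C-MIM library 2 or 3, or scramble library 1 or 2.

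For transcription and upkeep of mitochondrial DNA, 6 of 21 genes rose and 5 fell (median 0.05), and against scramble 6 rose and 3 fell. Top1mt, the mitochondrial topoisomerase, rose from 9.69 ± 0.23 to 15.4 ± 0.25 CPM (0.67 ± 0.08, adjusted p = 4.7e-05). The RNA polymerase gene Polrmt rose by 0.38 ± 0.07 and the elongation factor gene Tefm by 0.47 ± 0.10, while Tfb1m, which methylates mitochondrial ribosomal RNA, fell by 0.52 ± 0.09. Tfb1m shares exon bases with Tiam2 on the opposite strand. Without 1C-MIM library 3 the number of falls was 3, and against scramble it was 1 without 1C-MIM library 1, 1C-MIM library 3 or scramble library 2.

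Known targets of PGC-1 and its receptors were split: 6 of 26 rose and 8 fell (median -0.08), and against scramble 6 rose and 7 fell (median -0.07). Fndc5, which encodes the precursor of irisin, was at 19.7, 14.0 and 13.4 CPM in control, 20.1, 17.2 and 18.2 CPM in scramble and 64.8, 56.9 and 64.6 CPM in 1C-MIM. It rose by 1.99 ± 0.13 against control (adjusted p = 3.5e-06) and by 1.74 ± 0.13 against scramble. Sod2, the mitochondrial superoxide dismutase, rose by 0.50 ± 0.07. Pdk4, a kinase that restrains pyruvate dehydrogenase, went the other way, from 41.4 ± 1.0 to 21.0 ± 2.2 CPM (-0.98 ± 0.07), as did the fatty acid transporter gene Cd36 (-1.08 ± 0.16).

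The list of fusion regulators and OPA1 processing held genes of differing roles, proteases among them, and most rose. Of 11 genes for OPA1 processing and fusion 10 rose and 0 fell, with a median of 0.23, and against scramble 9 rose and 0 fell (median 0.24). Oma1, the protease that cuts OPA1 under stress, was at 9.75, 11.6 and 11.4 CPM in control, 10.8, 11.5 and 10.7 CPM in scramble and 14.9, 14.5 and 15.9 CPM in 1C-MIM, with no overlap (0.47 ± 0.09 against control, adjusted p = 0.00110). The rhomboid protease gene Parl rose by 0.30 ± 0.05, the protease subunit gene Afg3l1 by 0.32 ± 0.05 and Stoml2, a cardiolipin-binding scaffold, by 0.45 ± 0.08. Mtch2 was the gene not called (-0.01 ± 0.05) and is named here after its value was seen. With the libraries numbered 1 left out 10 again rose against control, while scaling by library size alone left 6 rises. Rises against control numbered 7 without control library 2 or 1C-MIM library 1, and 8 without 1C-MIM library 3. Against scramble they numbered 7 without 1C-MIM library 1 or 3, or without scramble library 2 or 3.

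Fission adaptors and regulators gave 8 rises and 4 falls among 17 (median 0.18), and 8 rises and 3 falls against scramble (median 0.19). Rises against scramble numbered 5 without scramble library 2 and 4 without scramble library 3. March5, a ubiquitin ligase of the outer membrane that acts on DRP1, rose by 0.32 ± 0.04 and the SUMO protease gene Senp5 by 0.27 ± 0.05. Inf2, a formin that assembles actin at sites of constriction, fell from 177 ± 12 to 125 ± 5.1 CPM (-0.50 ± 0.06), and Mtfr2 fell by 0.74 ± 0.15. Senp5 shares exon bases with Ncbp2 on the opposite strand.

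The cristae complex MICOS and its partners gave 1 rise and 0 falls among 11 (median -0.09), and the same counts against scramble (median -0.08), where the rise was lost without scramble library 2 or 3. Dnajc11 rose by 0.24 ± 0.05. The core subunit gene Immt (-0.12 ± 0.05, adjusted p = 0.0581), Mtx1 (-0.12 ± 0.05) and Mtx3 (-0.37 ± 0.15) were not called. The Mtx3 value rested on control library 1 (29.9 CPM, beside 19.8 and 18.8 CPM): it was -0.14 without that library, and -0.08 ± 0.15 against scramble. Without control library 1 there were 2 falls in this list, and 1 without control library 2, control library 3 or 1C-MIM library 3, while scaling by library size alone gave 3. Of 8 genes for movement of mitochondria along the cytoskeleton 0 rose and 4 fell (median -0.17): Armcx3 (-0.51 ± 0.06), the motor gene Myo19 (-0.26 ± 0.07), the GTPase gene Rhot2 (-0.26 ± 0.08) and the adaptor gene Trak2 (-0.11 ± 0.04). Against scramble 0 rose and 2 fell (median -0.16), and 5 fell without control library 1. Myo19 (-0.07 ± 0.07, adjusted p = 0.392) and Rhot2 (-0.19 ± 0.08, adjusted p = 0.0784) were not called against scramble. Without control library 1 the difference of Rhot2 from control was -0.17. Without 1C-MIM library 2 only 2 fell, since Rhot2 (adjusted p = 0.0796) and Trak2 (0.0509) were then not called. Trak2, at an adjusted p of 0.0489, also lost its call without control library 2 or 3, or without any other single library of 1C-MIM or scramble. Rhot2 shares 1307 exon bases with Gm20683 on the same strand, and Myo19 and Mtx1 overlap genes on the opposite strand.

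In the mitophagy list 4 of 15 rose and 5 fell (median -0.08), and against scramble 2 rose and 6 fell (median -0.04). Optn, which binds ubiquitin on damaged mitochondria, fell from 39.0 ± 0.81 to 17.1 ± 2.0 CPM (-1.19 ± 0.08, adjusted p = 2.0e-06). Bnip3l (-0.39 ± 0.08) and Bnip3 (-1.66 ± 0.11), receptors in the outer membrane, fell, and so did the deubiquitinase gene Usp15 (-0.33 ± 0.04). The 4 rises became 2 without control library 2 and 1 without control library 3, 1C-MIM library 2 or 1C-MIM library 3, and the 2 rises against scramble became 1 without 1C-MIM library 2 or 3 or scramble library 2 or 3.

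**Figure D4:**
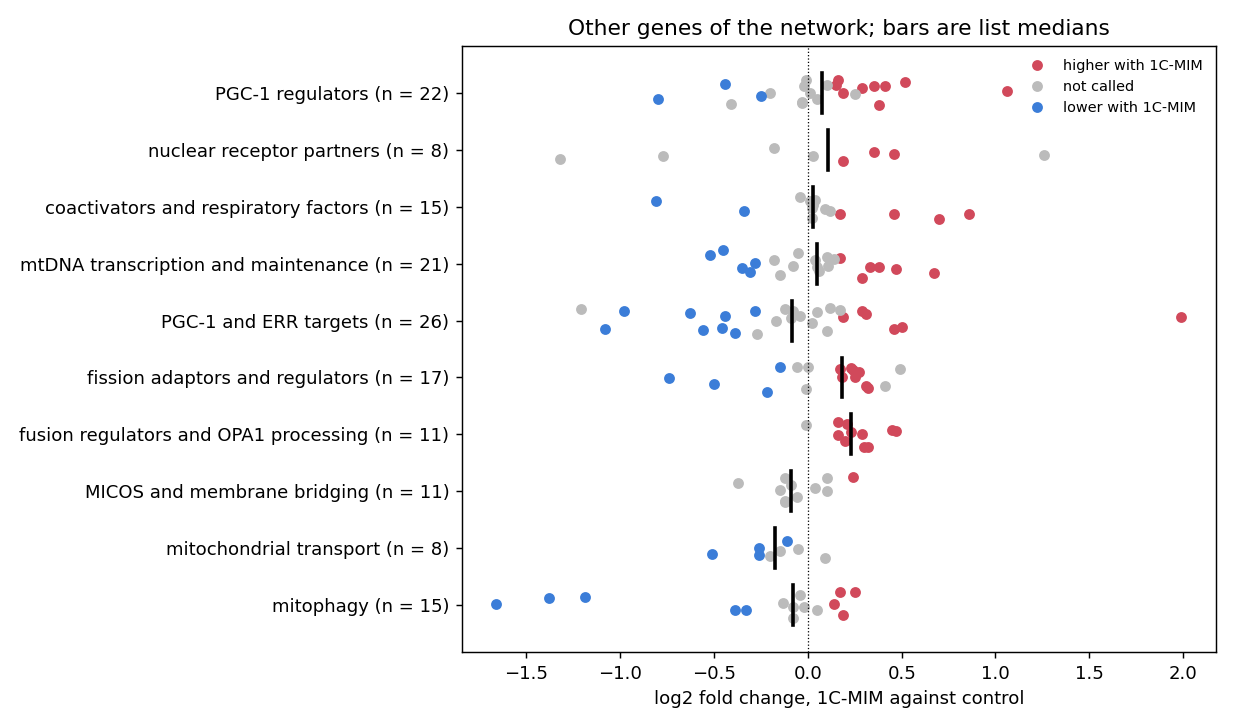
Log2 fold change of 1C-MIM against control for the 154 tested genes in the 10 lists of the network, 1 point per gene, red where called higher, blue where called lower and grey where not called, with black bars at list medians. The list for fusion and OPA1 processing has 10 of 11 points in red, and the targets of PGC-1 spread to both sides around a median of -0.08.

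The genes whose log2 CPM followed Ppargc1a most closely over the 9 libraries, among 10505 genes that averaged 5 CPM or more, were Pcdhb17 (Pearson r = 0.989), Zfp651 (0.982), Zbtb11 (0.978), Proser1 (0.978) and Ranbp9 (0.977). Their changes against control were small beside that of Ppargc1a, from 0.24 ± 0.06 for Zbtb11 to 0.50 ± 0.08 for Zfp651. Among those closest to Ppargc1b were Pygo2 (0.984), Prkaca (0.983), Furin (0.978) and Psmd3 (0.974), with changes of 0.17 ± 0.05 to 0.33 ± 0.05. Zfp651, Zbtb11, Ranbp9, Furin and Psmd3 share exon bases with genes on the opposite strand, as do Ncoa1, Gabpb1, Top1mt, Stoml2, Immt, Optn, Bnip3 and Usp15 of the lists, so their counts are uncertain to that extent. These correlations describe 9 libraries that share 3 conditions and, in part, a library number.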

How the data were processed

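RNA of 9 libraries of C2C12 fibres was sequenced after 1.3 µg of total RNA was used with a SMARTer kit, per the labels' protocols. The authors deposited counts, FPKM and TPM per RefSeq transcript, per the file headers. FPKM were not used, and TPM served only to compare levels between genes. Among the tools in the submitters' processing notes are STAR, Salmon 1.5.2, featureCounts from Subread 2.0.1, and DESeq2, and the build there is GRCm39. Their roles and the strand setting are not known here. The tables hold 33984 transcripts of 24063 symbols, none of them encoded by mitochondrial DNA, and the transcript with the highest mean count stood for each symbol. Transcripts of a gene share reads, so isoforms were not compared.

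Counts were tested in R 4.3.3 with edgeR 4.0.16 (filterByExpr, TMM scaling, robust quasi-likelihood fit over all 9 libraries), with limma-voom (limma 3.58.1) and DESeq2 1.42.0 as alternatives. The 10057 genes left out by the filter held 0.028% of counts. Printed CPM are counts per library size times its TMM factor. A value after ± is an SD for levels and a standard error for log2 fold changes, the latter derived from the fold change and the F statistic. The procedure was tested on simulated data. Alternatives were other scalings, filters and transcripts, the compared groups alone, a replicate block, and libraries left out. Same-numbered libraries of control and scramble deviated together (r = 0.481, 0.214 and 0.168 over genes), and the block gave 0 calls in that comparison. Genes named beyond the 10 were the 4 with the smallest p in each list, and the 5 most correlated with each coactivator, leaving out predicted genes; 1 of these is not reported here. The 10 genes, the lists and the markers were chosen with earlier results of these data known. Exon overlaps come from GENCODE vM21 and promoter sequences from RefSeq on GRCm38.p6. The promoters of 9 of the 10 genes were searched, and that of Ppargc1b was left out.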

Additional observations from a re-analysis of the deposited data

How the results depend on the processing

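Of the values for the 10 genes under the alternatives, 199 kept direction and call against control, 5 gained a call, 3 lost one and 3 changed sign. Against scramble these numbers were 195, 11, 1 and 3. The setting with second transcripts replaced counts only for Dnm1l and Fis1. The other genes had 1 transcript, or a second one with the same counts, so their values there were bound to stay the same. The number of the 10 genes called against scramble was 5 with the replicate block and 5 without the libraries numbered 1. Leaving out 1 library gave 3 to 5 called genes against control, 3 to 4 against scramble and 0 to 0 between scramble and control. Over all genes it gave 5487 to 7195, 5267 to 7473 and 0 to 3 calls. Between scramble and control, DESeq2 called 4 genes and the fit without the libraries numbered 1 called 96. The replicate numbers were not taken to pair 1C-MIM with the other groups in the main fit. Same-numbered libraries of 1C-MIM correlated by 0.194, 0.084 and 0.104 with control and by 0.153, 0.035 and 0.028 with scramble, all above 0. Differently numbered libraries ran from -0.176 to 0.107 with control and from -0.117 to 0.091 with scramble. Control library 2 correlated best with 1C-MIM library 3 (0.107). Whether libraries of the same number share an origin was not tested. With the replicate block 7397 genes were called against control and 7309 against scramble. The block added Opa1 (0.15, edgeR adjusted p = 0.0124) and Fis1 (0.12, edgeR adjusted p = 0.0226) against control. Against scramble it added Dnm1l (-0.12, edgeR adjusted p = 0.017) and Fis1 (0.13, edgeR adjusted p = 0.0181). Sign changes were all of uncalled values, and their cause was not tested. With libraries left out in turn, Tfam ranged from -0.05 to 0.00 against control and from -0.02 to 0.10 against scramble. Between scramble and control the ranges were -0.18 to 0.26 for Ppargc1a, -0.03 to 0.03 for Nrf1, -0.12 to 0.00 for Tfam, -0.09 to 0.05 for Mfn1, -0.03 to 0.06 for Mfn2, -0.05 to 0.00 for Dnm1l and -0.07 to 0.05 for Fis1. Scaling by library size alone gave -0.01 for Mfn1 against control, -0.01 for Tfam against scramble, and -0.01 for Nrf1 and -0.00 for Mfn2 between scramble and control. Without the libraries numbered 1, Tfam was -0.00 against scramble and Nrf1 -0.07 between scramble and control. Nrf1 was -0.00 there with upper quartile scaling and -0.02 with the mean over transcripts, and Fis1 was 0.00 with its second transcript. Depth limited Ppargc1a, with 17 to 83 counts per library.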
